A study of Mus musculus with 9 samples.

Results

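The 38 genes described here mark the endothelium, the cell layer that lines blood vessels, and the endocardium, the endothelial lining of the heart chambers. They were taken as a list of symbols and matched through Ensembl gene identifiers to GENCODE mouse release 21 (GRCm38). All 38 were among the 43629 genes of the count tables. Of these, 35 had enough reads to be tested, among 16561 genes tested in all. Ventricles of outbred CD-1 mouse hearts at embryonic day 13.5 were pooled within each litter, and cells slow to attach to plastic were grown for 48 h. All groups then received siRNA, short double-stranded RNA that directs cleavage of a matching transcript, at 0.012 pmol. The 3 groups had 3 libraries each: a negative control siRNA (control 1 to 3), a pool of 4 siRNAs against Dnmt3a (DNMT3a 1 to 3) and a pool of 4 against Dnmt3b (DNMT3b 1 to 3). Dnmt3a and Dnmt3b encode the enzymes that place new DNA methylation. After 72 h a magnetic sort for VCAM1, a surface protein that served to select cardiomyocytes, preceded RNA extraction. The sort thus did not aim at endothelial cells, and how many of them it kept was not measured here. Whether libraries of 1 group stem from different litters or dishes is not in the labels, and p-values then cover only the spread between these libraries, which may be technical.

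Endothelial cells carry a shared set of junction proteins (VE-cadherin, encoded by Cdh5, and PECAM1), receptor tyrosine kinases for the VEGF and angiopoietin ligands (Kdr, Flt1, Tek, Tie1) and transcription factors of the ETS and SOXF families (Erg, Fli1, Sox7, Sox17, Sox18). VEGF signalling through KDR drives vessel growth, Notch signalling through DLL4 and NOTCH4 sets arterial identity, and ERG and the SOXF factors act on enhancers of many of the other genes in the list. In the embryonic heart the endocardium also expresses Nfatc1, a transcription factor needed for valve formation, and Npr3, the clearance receptor for natriuretic peptides made by the myocardium.

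Each library held 27852412 to 35896018 reads in genes, and levels are given as CPM, counts scaled to the same library size after TMM scaling, which evens out differences in composition. Dnmt3a was at 232, 270 and 275 CPM in the controls and at 40.3, 52.9 and 46.3 CPM with DNMT3a siRNA, and Dnmt3b was at 4.32, 4.26 and 4.33 CPM in the controls and at 1.17, 2.43 and 1.51 CPM after DNMT3b siRNA. Both targets fell (adjusted p = 3.42e-06 and 0.00816), as their labels say. The level of the sort marker Vcam1 was 276 to 361 CPM in the controls, 212 to 258 in the DNMT3a libraries and 268 to 307 in the DNMT3b libraries. Of 10 cardiomyocyte markers, 7 rose after DNMT3a siRNA, against 4.87% of all tested genes, and 8 after DNMT3b siRNA, against 3.52%. The summed level of these 10 went from 1968 to 2521 CPM in controls to 4123 to 4944 and 5145 to 6316 CPM. Tnnt2, cardiac troponin T, rose by 0.75 and 1.00 on the log2 scale, and Myh6, alpha myosin heavy chain, by 1.22 and 1.38. Of 7 fibroblast markers, 3 fell after DNMT3a siRNA and 2 after DNMT3b siRNA, and 0 rose in either. Of 6 epicardial markers, 3 fell and 1 rose after DNMT3a siRNA, and 1 fell after DNMT3b siRNA. Of 9 macrophage markers, 3 fell after DNMT3a siRNA and 0 after DNMT3b siRNA. Of all tested genes, 5.22% fell after DNMT3a siRNA and 2.12% after DNMT3b siRNA. The 6 defining endothelial markers (Pecam1, Cdh5, Kdr, Flt1, Tek and Tie1) were above 0 in every library, with a summed level of 139 to 177 CPM in controls, 142 to 163 CPM after DNMT3a siRNA and 190 to 207 CPM after DNMT3b siRNA. In bulk samples, fewer cells of a type and less RNA per cell cannot be told apart.

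Sequence just before the start site was set beside 4 members that open different parts of the results: Kdr and Emcn, which were higher in the DNMT3b libraries, and Cd34 and Notch4, which differed between the knockdowns. The Dnmt3 enzymes act on cytosines followed by guanine (CG), so each CG is in capitals, and so is every CAGGAAG or its reverse complement CTTCCTG, an ETS-like word. Each line gives the 250 bases before the RefSeq start of the gene (GRCm38.p6), 5′ to 3′ on the gene's strand.
Kdr, chr5:75978456-75978705, minus strand: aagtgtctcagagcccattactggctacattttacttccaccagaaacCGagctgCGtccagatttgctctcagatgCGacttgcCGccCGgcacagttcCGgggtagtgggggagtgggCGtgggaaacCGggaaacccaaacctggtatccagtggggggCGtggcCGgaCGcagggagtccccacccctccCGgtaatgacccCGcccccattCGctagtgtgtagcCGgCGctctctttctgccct
Emcn, chr3:137340828-137341077, plus strand: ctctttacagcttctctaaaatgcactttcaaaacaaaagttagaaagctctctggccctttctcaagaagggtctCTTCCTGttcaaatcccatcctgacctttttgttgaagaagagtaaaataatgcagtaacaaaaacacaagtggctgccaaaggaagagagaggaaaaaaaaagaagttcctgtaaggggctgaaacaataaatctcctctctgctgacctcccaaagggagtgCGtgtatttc
Cd34, chr1:194938571-194938820, plus strand: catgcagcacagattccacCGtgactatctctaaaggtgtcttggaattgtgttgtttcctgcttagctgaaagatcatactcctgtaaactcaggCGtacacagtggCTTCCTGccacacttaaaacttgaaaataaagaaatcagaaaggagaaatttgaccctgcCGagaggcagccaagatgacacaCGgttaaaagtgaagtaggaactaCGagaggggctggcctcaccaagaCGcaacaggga
Notch4, chr17:34564045-34564294, plus strand: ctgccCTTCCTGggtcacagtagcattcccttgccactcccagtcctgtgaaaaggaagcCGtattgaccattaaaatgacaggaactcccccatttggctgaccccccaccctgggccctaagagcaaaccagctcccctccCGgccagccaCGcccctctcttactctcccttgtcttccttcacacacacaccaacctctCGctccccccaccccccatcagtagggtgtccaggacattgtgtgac
The 4 stretches hold 16 CG dinucleotides (Kdr), 1 (Emcn), 6 (Cd34) and 4 (Notch4). CAGGAAG on either strand occurs once each in those of Emcn, Cd34 and Notch4. RefSeq windows of 300 bases around the start were matched for 18 of the 38 members (23 windows), against 27025 genes and 32851 windows in all. The median number of CG dinucleotides was 7 in the members' windows and 7 in all windows, and the median GC content was 58.3% against 52.7%. On both strands, CAGGAAG stood in 34.8% of the members' windows (8 of 23, from 7 members) and in 13.3% of all windows. The ETS-like word CCGGAAG stood in 0 of the 23 and in 8.86% of all windows, the SOX-like word AACAAT in 13.0% against 10.7%, and the E-box word CANNTG in 65.2% against 72.3%. CAGGAAG and CCGGAAG differ at the second base, so no match counts for both, while the other words were counted independently and may overlap. A match describes letters alone, and no methylation was measured here.

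Per kilobase of exon, which allows levels to be compared between genes, the control means of the tested members ranged from 45.2 CPM per kb for Eng to 0.0657 for Vwf. After Eng, the co-receptor endoglin of the TGF-beta and BMP family, came Ptprb (the phosphatase VE-PTP, 28.3), Cd34 (a sialomucin of vessel and stem cells, 19.2), Ecscr (an endothelial surface protein that regulates migration, 8.97), Tek (6.70), Flt1 (6.44) and Fli1 (6.43). Tek and Flt1 are among the 6 defining endothelial markers, and the others of the 6 were lower. Cdh5 was at 3.87 CPM per kb, Tie1 at 1.44, Pecam1 at 1.43 and Kdr at 0.22. The mucin endomucin (Emcn) was at 1.01. The most abundant members included Eng and Cd34, which stromal cells are also known to express. Eng, Ptprb, Cd34 and Flt1 together made up 80.5%, 72.5% and 81.5% of all reads of the 38 genes in controls 1 to 3. That share was 84.1%, 70.3% and 79.4% in DNMT3a 1 to 3 and 64.1%, 65.6% and 65.2% in DNMT3b 1 to 3, below every library of the other groups. The summed level of all 38, which these 4 genes dominate, was 971 to 1064 CPM in controls, 877 to 1070 after DNMT3a siRNA and 871 to 920 after DNMT3b siRNA.

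**Figure D1:**
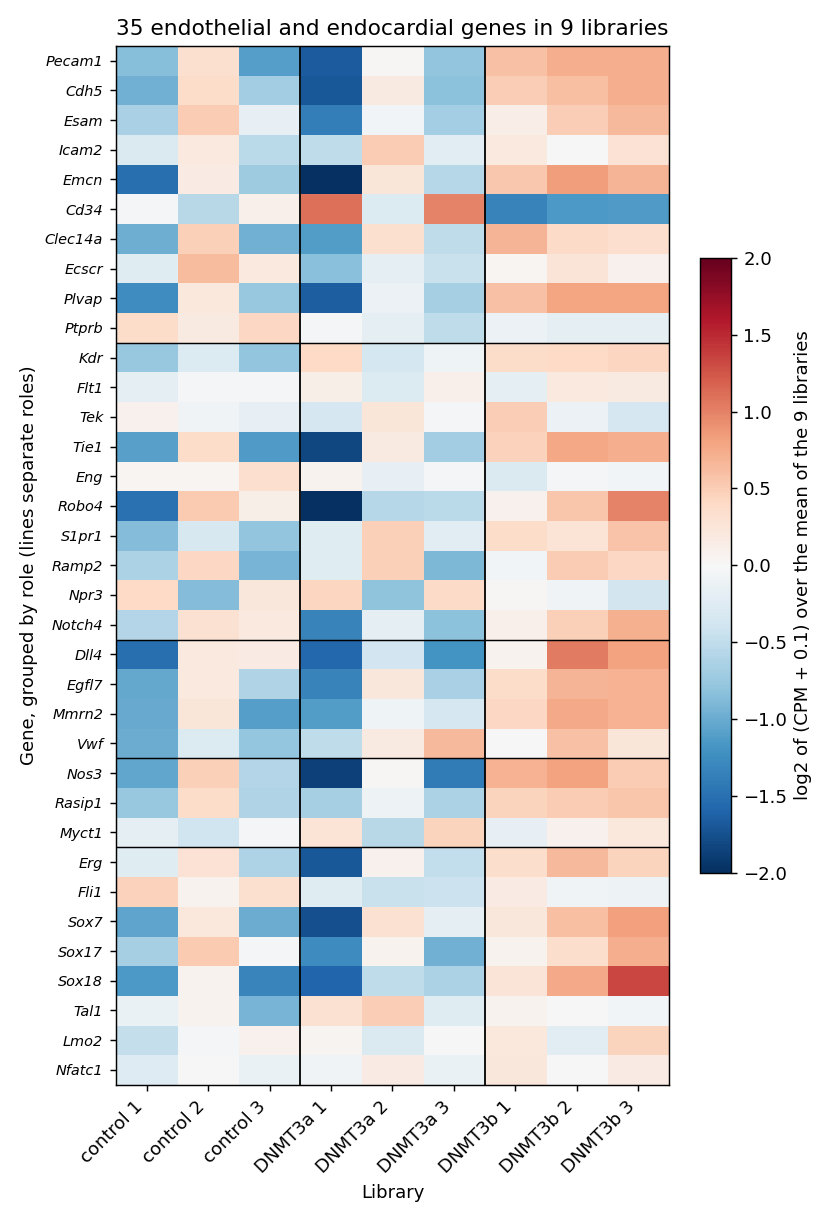
Level of each tested member in the 9 libraries, as log2 of CPM plus a small constant with each gene centred on its own mean over the libraries (genes in rows, libraries in columns, red above and blue below the mean). Control 2 and DNMT3a 2 share the high values of the 3 DNMT3b libraries for a block of genes that includes Pecam1, Cdh5, Tie1 and Emcn, and share low values for Npr3.

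Within the control and DNMT3a groups, many members differed between libraries. Control 2 was the highest control for 26 of the 35 tested members, against 36.1% of all tested genes, and DNMT3a 2 was the highest DNMT3a library for 24, against 37.9%. Both held for 23 members, against 20.4% of all genes. The median ratio of control 2 to the mean of controls 1 and 3 was 1.69 over the members (0.438 to 2.83) and 0.993 over all genes, and that of DNMT3a 2 to DNMT3a 1 and 3 was 1.58 (0.401 to 3.47) against 1.00. For the libraries numbered 2 of the DNMT3b group the ratio was 1.04 against 0.994. The labels do not say what a shared number marks.

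All 3 DNMT3b libraries lay above control 1, control 3, DNMT3a 1 and DNMT3a 3 for 19 members, against 11.9% of all genes. For 19 members this held together with control 2 and DNMT3a 2 being the highest of their groups, against 7.3% of all genes. These were Pecam1, Cdh5, Tie1, Emcn, Esam, Egfl7, Nfatc1, Plvap, Ramp2, Sox7, Sox17, Sox18, Erg, Icam2, Clec14a, Mmrn2, Rasip1, S1pr1 and Nos3, a set chosen by this pattern and so described without a test. Their summed level was 79.3, 161 and 89.0 CPM in controls 1 to 3, 73.3, 162 and 99.7 CPM in DNMT3a 1 to 3, and 189, 205 and 217 CPM in DNMT3b 1 to 3. They hold 3 of the 6 defining endothelial markers (Pecam1, Cdh5 and Tie1, but not Kdr, Flt1 or Tek), the 3 SOXF genes and Erg. Their control level was 0.292 to 4.62 CPM per kb with a median of 0.900. The other 16 tested members had a median of 2.07 CPM per kb (0.0657 to 45.2) and include the 7 with the highest levels. The median ratio of control 2 to controls 1 and 3 was 2.30 for the 19 and 1.07 for those 16. The choice of the 19 required control 2 to be the highest control, so this difference follows from the choice.

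**Figure D2:**
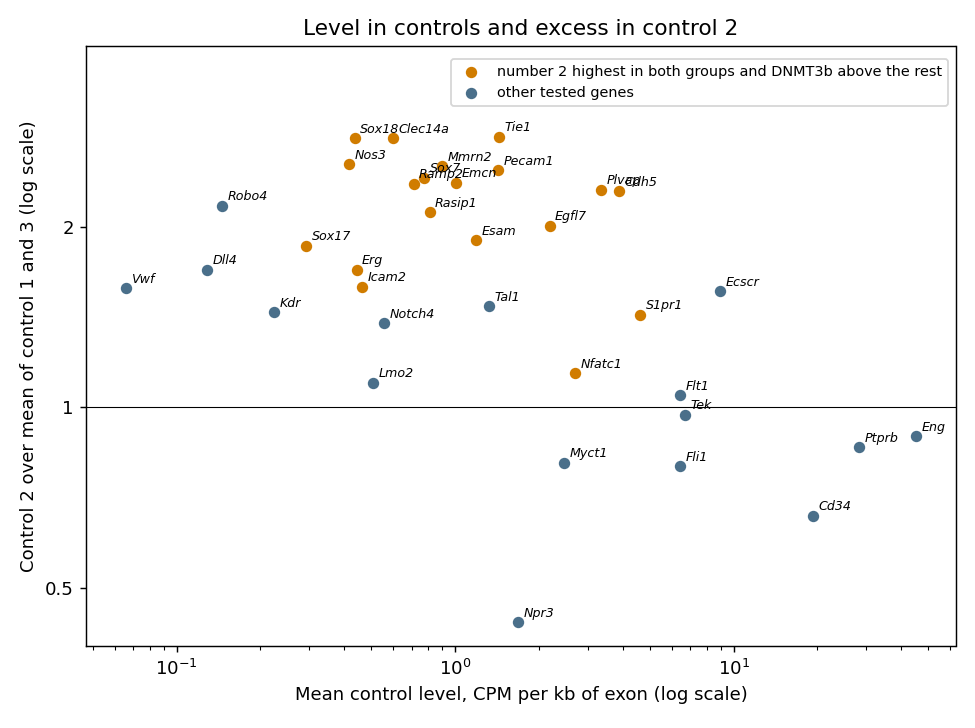
Control level of each tested member (x axis, mean CPM per kb of exon, log scale) against the ratio of control 2 to the mean of controls 1 and 3 (y axis, log scale), with the 19 genes that moved with libraries numbered 2 and with DNMT3b siRNA in orange. The orange genes were chosen in part for having control 2 as their highest control, so their place above a ratio of 1 is set by the choice. The 7 members with the highest levels lie at or below a ratio of 1.56 (Ecscr), while Tie1, Clec14a and Sox18 lie at 2.83, 2.81 and 2.81.

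Fibroblast and smooth muscle markers also had their highest sums in control 2 and DNMT3a 2 within those groups, but not all cell types did. The summed level of 7 fibroblast markers was 56953 CPM in control 2 and 37346 and 39464 CPM in controls 1 and 3, and 42090 CPM in DNMT3a 2 against 38770 and 38285 CPM in DNMT3a 1 and 3. That of 7 smooth muscle and pericyte markers was 8186 CPM in control 2 against 6050 and 5515, and 8960 CPM in DNMT3a 2 against 7984 and 7816. In DNMT3b 2 both sums lay between those of DNMT3b 1 and 3. The cardiomyocyte sum was likewise highest in control 2 and, by a small margin, in DNMT3a 2 (4944 CPM against 4925 CPM in DNMT3a 3). The sum of 6 epicardial markers was instead lowest in control 2, at 1648 CPM against 1824 and 1925 CPM in controls 1 and 3. In DNMT3a 2 it was 1176 CPM, between 1134 and 1466 CPM in DNMT3a 1 and 3. Among the controls, macrophage markers were highest in control 3, but among the DNMT3a libraries in DNMT3a 2 (18.1 CPM against 8.41 and 17.6). Macrophage markers (9 genes, 22.7 to 61.7 CPM in controls, 8.41 to 18.1 after DNMT3a siRNA, 20.0 to 49.6 after DNMT3b siRNA) and platelet markers (6 genes, 3.61 to 6.44 CPM over all libraries) were low, and 5 of 8 erythroid markers were at 0 in every library. Their part in the results below was not tested.

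The first comparison asks what lowering Dnmt3b changed. After DNMT3b siRNA, Kdr rose 2.03-fold and S1pr1 2.06-fold, and Ptprb fell. Junction, receptor and SOXF genes such as Pecam1, Tie1 and Sox18 had higher values in the DNMT3b libraries without passing the test. Of 35 tested members, 2 rose, against 3.52% of all genes, and 1 fell, against 2.12%. That is 3 called in either direction, against 5.64%. By contrast, 15 members had all 3 DNMT3b libraries above all 3 controls, against 13.8% of all genes. They were Pecam1, Cdh5, Kdr, Tie1, Emcn, Egfl7, Plvap, Sox7, Sox18, Erg, Vwf, Mmrn2, Rasip1, S1pr1 and Nos3. All 3 DNMT3b libraries lay below the controls for 3 members, Eng, Cd34 and Ptprb, against 12.3%. The median log2 fold change was 0.66 over the tested members and 0.00 over all genes, with 29 members above 0 and 6 below, and it was 1.12 without control 2.

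Among the receptors, Kdr, the main VEGF receptor tyrosine kinase (Ensembl ENSMUSG00000062960, chr5:75932827-75978458, minus strand), was at 1.78, 2.54 and 1.74 CPM in controls 1 to 3, at 4.12, 2.39 and 2.91 CPM in DNMT3a 1 to 3, and at 4.00, 4.11 and 4.21 CPM in DNMT3b 1 to 3. Every DNMT3b library was above every control, and the DNMT3a libraries spread across both. Kdr rose by 1.02 on the log2 scale against controls (SE 0.23, 2.03-fold, adjusted p = 0.0276). Of the 6 defining markers it was the 1 that passed, and, unlike Pecam1, Cdh5 and Tie1, it was not highest in DNMT3a 2 among the DNMT3a libraries. The call was lost without control 1, control 3 or any 1 DNMT3b library (adjusted p = 0.055 to 0.12).

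S1pr1, the receptor for sphingosine 1-phosphate that steadies endothelial junctions (ENSMUSG00000045092, chr3:115710433-115715072, minus strand), was at 12.0, 17.6 and 12.7 CPM in controls, 18.5, 30.5 and 18.8 CPM with DNMT3a siRNA, and 28.3, 26.5 and 32.4 CPM after DNMT3b siRNA. Both knockdown groups lay wholly above the controls. S1pr1 rose by 1.05 after DNMT3b siRNA (SE 0.21, 2.06-fold, adjusted p = 0.0191). The call was lost without control 1, control 3, DNMT3b 2 or DNMT3b 3 (adjusted p = 0.0546 to 0.0984). After DNMT3a siRNA its difference was 0.68 (SE 0.21, adjusted p = 0.0734), and with the library number as a block it was 0.67 and passed (adjusted p = 0.0311).

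Tie1, an orphan receptor that modulates TEK, was at 4.49, 12.5 and 4.33 CPM in controls, 2.66, 10.9 and 5.89 CPM with DNMT3a siRNA, and 13.2, 16.5 and 16.0 CPM after DNMT3b siRNA. Control 2 was well above the other controls and just under DNMT3b 1. The difference from controls was 1.10 (SE 0.55, adjusted p = 0.295) and did not pass. Tek, the angiopoietin receptor, was at 34.6, 31.0 and 29.1 CPM in controls, 25.8, 38.7 and 32.1 CPM with DNMT3a siRNA, and 45.7, 30.1 and 25.7 CPM after DNMT3b siRNA. Flt1, a VEGF receptor that also acts as a decoy, was at 81.4, 89.7 and 90.0 CPM in controls, 99.7, 75.9 and 99.1 CPM with DNMT3a siRNA, and 81.0, 106 and 105 CPM after DNMT3b siRNA. The groups overlapped for Tek and Flt1, and the Flt1 difference after DNMT3b siRNA was 0.16 (SE 0.13, adjusted p = 0.519).

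The junction and surface genes Pecam1, Cdh5 and Emcn shared one profile. Pecam1, an adhesion molecule of endothelial junctions, was at 6.47, 14.8 and 5.44 CPM in controls, 3.64, 12.1 and 6.77 CPM with DNMT3a siRNA, and 17.8, 19.6 and 19.7 CPM after DNMT3b siRNA. Cdh5 was at 10.3, 26.0 and 12.4 CPM in controls, 6.17, 23.0 and 11.5 CPM with DNMT3a siRNA, and 28.5, 30.8 and 33.5 CPM after DNMT3b siRNA. Emcn, a mucin abundant in endocardium, was at 2.70, 8.84 and 4.77 CPM in controls, 1.69, 9.27 and 5.23 CPM with DNMT3a siRNA, and 11.5, 14.1 and 12.6 CPM after DNMT3b siRNA. In all 3 genes the lowest DNMT3b library was above the highest control, control 2, and the other controls lay far under it. The differences of 1.09 for Pecam1 (SE 0.47, adjusted p = 0.232), 0.93 for Cdh5 (SE 0.50, adjusted p = 0.332) and 1.23 for Emcn (SE 0.58, adjusted p = 0.274) did not pass. Without control 2 the Pecam1 difference was 1.67 and passed (adjusted p = 0.0474).

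Plvap, which forms the diaphragms of fenestrated endothelium, was at 3.85, 10.7 and 5.44 CPM in controls, 2.89, 8.52 and 5.79 CPM with DNMT3a siRNA, and 13.9, 16.0 and 16.1 CPM after DNMT3b siRNA. Esam, a tight junction adhesion molecule, was at 2.17, 4.98 and 3.07 CPM in controls, 1.27, 3.30 and 2.13 CPM with DNMT3a siRNA, and 3.78, 4.89 and 5.47 CPM after DNMT3b siRNA. Plvap separated DNMT3b libraries from controls, while Esam did not because control 2 reached the DNMT3b range. Icam2, an adhesion molecule, ran from 0.666 to 1.48 CPM over the 9 libraries, and Clec14a, a lectin of vessel sprouts, was at 1.70, 4.78 and 1.70 CPM in controls and 5.56, 4.50 and 4.35 CPM after DNMT3b siRNA.

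Egfl7, a secreted regulator of vessel tube formation, was at 4.99, 11.8 and 6.73 CPM in controls, 3.99, 12.0 and 6.51 CPM with DNMT3a siRNA, and 13.2, 16.4 and 16.8 CPM after DNMT3b siRNA. Mmrn2, an endothelial matrix protein that binds CLEC14A, was at 2.45, 5.98 and 2.29 CPM in controls, 2.27, 4.76 and 3.96 CPM with DNMT3a siRNA, and 6.73, 8.61 and 8.24 CPM after DNMT3b siRNA. Both were above every control in every DNMT3b library. The Mmrn2 difference of 1.13 did not pass (SE 0.38, adjusted p = 0.116). Vwf, the von Willebrand clotting factor, was the least abundant tested member per kilobase, at 0.808, 1.40 and 0.962 CPM in controls, 1.17, 1.94 and 2.75 CPM with DNMT3a siRNA, and 1.69, 2.62 and 2.03 CPM after DNMT3b siRNA. Its difference after DNMT3b siRNA was 1.00 (SE 0.34, adjusted p = 0.116).

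Among intracellular proteins, Nos3, the endothelial nitric oxide synthase, was at 0.948, 2.89 and 1.33 CPM in controls, 0.487, 2.09 and 0.720 CPM with DNMT3a siRNA, and 3.38, 3.66 and 2.94 CPM after DNMT3b siRNA. Rasip1, a RAS-binding protein needed for vessel lumens, was at 1.78, 4.00 and 2.00 CPM in controls, 1.92, 2.88 and 1.96 CPM with DNMT3a siRNA, and 4.24, 4.43 and 4.59 CPM after DNMT3b siRNA. For both, control 2 came close to the DNMT3b range and the other controls did not. Myct1, a membrane protein of endothelial cells, overlapped between groups, at 5.42 to 11.0 CPM over the 9 libraries.

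Of the transcription factors, Sox18 was at 0.474, 1.24 and 0.407 CPM in controls, 0.325, 0.788 and 0.720 CPM with DNMT3a siRNA, and 1.41, 2.04 and 3.12 CPM after DNMT3b siRNA (ENSMUSG00000046470, chr2:181669836-181671640, minus strand). The DNMT3b libraries lay above all 6 others, and the difference from controls was 1.62 (SE 0.47, adjusted p = 0.0725). Sox17 was at 0.836, 2.02 and 1.33 CPM in controls, 0.520, 1.45 and 0.654 CPM with DNMT3a siRNA, and 1.44, 1.78 and 2.35 CPM after DNMT3b siRNA. Sox7 was at 1.70, 4.19 and 1.78 CPM in controls, 1.01, 4.48 and 3.21 CPM with DNMT3a siRNA, and 4.27, 5.53 and 6.48 CPM after DNMT3b siRNA. The 3 SOXF genes, which act together in arterial and lymphatic development, thus had their highest control in control 2. Erg was at 1.42, 2.11 and 1.07 CPM in controls, 0.455, 1.82 and 1.18 CPM with DNMT3a siRNA, and 2.21, 2.72 and 2.35 CPM after DNMT3b siRNA, with control 2 just under the lowest DNMT3b library.

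For the endocardial genes Nfatc1 and Npr3 the DNMT3b and control libraries overlapped. Nfatc1 was at 18.4, 21.9 and 20.1 CPM in controls, 21.0, 24.6 and 20.0 CPM with DNMT3a siRNA, and 25.7, 21.8 and 24.7 CPM after DNMT3b siRNA. It shared with Emcn the highest values in control 2 and DNMT3a 2, within a narrow range in which DNMT3b 2 fell just under control 2. Npr3 was at 20.7, 8.55 and 18.3 CPM in controls, 21.3, 8.91 and 20.6 CPM with DNMT3a siRNA, and 16.0, 14.9 and 12.2 CPM after DNMT3b siRNA. It was lowest in control 2 and DNMT3a 2, the reverse of Emcn, and had the lowest ratio of control 2 to the other controls of all tested members (0.438). Tal1 (3.63 to 9.79 CPM over the 9 libraries) and Lmo2 (0.836 to 1.68 CPM), partners in a transcription complex shared by endothelium and blood, overlapped between groups. Ramp2, which makes the adrenomedullin receptor with CALCRL, also overlapped, at 1.44 to 4.08 CPM.

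Ptprb fell in both knockdowns (ENSMUSG00000020154, chr10:116275523-116389535, plus strand). It encodes a phosphatase that acts on TEK and on VE-cadherin, and it was at 388, 340 and 403 CPM in controls, 297, 265 and 212 CPM with DNMT3a siRNA, and 279, 265 and 264 CPM after DNMT3b siRNA. All 6 knockdown libraries lay below all 3 controls, and control 2 was the lowest control. Ptprb fell by 0.49 after DNMT3b siRNA (SE 0.12, 1.40-fold lower, adjusted p = 0.0365) and by 0.55 after DNMT3a siRNA (SE 0.12, 1.46-fold lower, adjusted p = 0.0147). The 2 comparisons share the control libraries. The DNMT3b call was lost without control 1, control 3 or any 1 DNMT3b library, without all libraries numbered 2, and with library size alone for scaling (adjusted p = 0.0521 to 0.142), and the DNMT3a call was lost without control 3 (adjusted p = 0.0548).

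Eng was at 170, 170 and 209 CPM in controls, 174, 148 and 162 CPM with DNMT3a siRNA, and 136, 163 and 160 CPM after DNMT3b siRNA. Every DNMT3b library was below every control for Eng, by a margin smaller than the spread within each group.

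**Figure D3:**
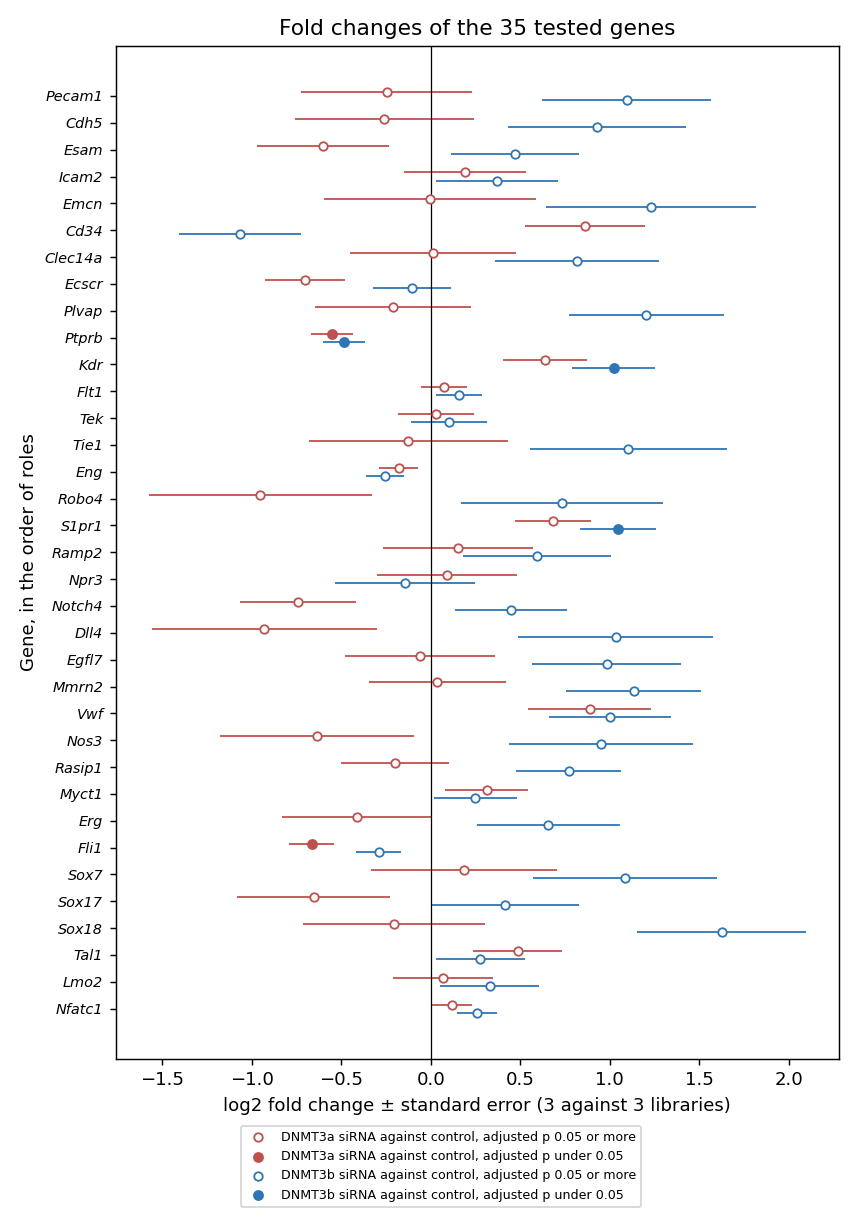
Log2 fold change of each tested member (points) with its standard error (bars) on the x axis, for DNMT3a siRNA (red) and DNMT3b siRNA (blue) against the shared controls, with genes in rows and filled points where the adjusted p was under 0.05. After DNMT3b siRNA 29 of 35 points lie above 0, and after DNMT3a siRNA 16 of 35 do. Both sets of points come from the fit of group alone.

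The next comparison asks what lowering Dnmt3a changed. After DNMT3a siRNA, Fli1 and Ptprb fell and no member rose in the fit of group alone. With the library number as a block, S1pr1 also rose, and Ecscr and Notch4 also fell. The DNMT3a and control libraries overlapped for Pecam1, Cdh5, Tie1, Emcn and Kdr. With group alone, 0 of 35 tested members rose, against 4.87% of all genes, and 2 fell, against 5.22%. That is 2 called, against 10.1%. In edgeR at an unadjusted p under 0.05, 4 members were higher, against 12.7% of all genes, and 4 lower, against 12.2%. DESeq2 called 1 higher and 3 lower, against 15.1% of all genes in either direction. All 3 DNMT3a libraries lay above the controls for 1 member (S1pr1), against 14.1% of all genes, and below for 2 (Fli1 and Ptprb), against 12.6%. The median log2 fold change was -0.06 over the members and 0.02 over all genes, with 16 above 0 and 19 below. Leaving out 1 library moved that median between -0.45 (without DNMT3a 2) and 0.26 (without control 2).

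Fli1, an ETS factor of endothelial and blood cells (ENSMUSG00000016087, chr9:32422204-32542861, minus strand), was at 25.2, 19.2 and 22.8 CPM in controls, 15.5, 13.3 and 13.6 CPM with DNMT3a siRNA, and 20.5, 17.4 and 17.0 CPM after DNMT3b siRNA. The DNMT3a libraries were the lowest of all 9, and control 2 was not raised. Fli1 fell by 0.66 (SE 0.13, 1.58-fold lower, adjusted p = 0.00812), and it was called under each of 19 alternative settings (adjusted p = 5.4e-05 to 0.0346).

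In this comparison libraries with the same number deviated together from their group means, so the number was also used as a block. That fit covered all 9 libraries, so the DNMT3b libraries were blocked by number too. Their deviations correlated weakly with those of the same-numbered controls, at 0.212, 0.101 and 0.0334. No block was fitted to the DNMT3a and control libraries alone. With the block 5 members were called, against 14.3% of all genes: Fli1, Ptprb, Ecscr and Notch4 fell and S1pr1 rose. Ecscr was at 11.2, 20.7 and 15.2 CPM in controls, 7.40, 11.8 and 9.78 CPM with DNMT3a siRNA, and 13.6, 16.0 and 14.2 CPM after DNMT3b siRNA. DNMT3a 2 overlapped control 1, but within each number the DNMT3a library was lower, by -0.60, -0.81 and -0.64 on the log2 scale. Without the block the Ecscr difference was -0.70 (SE 0.22, adjusted p = 0.0753), and with it the adjusted p was 0.00615. Notch4, a receptor largely of endothelial cells (ENSMUSG00000015468, chr17:34564268-34588503, plus strand), was at 2.90, 5.50 and 5.07 CPM in controls, 1.69, 3.85 and 2.45 CPM with DNMT3a siRNA, and 4.76, 6.21 and 7.33 CPM after DNMT3b siRNA. Its difference was -0.74 (SE 0.32, adjusted p = 0.184), with an adjusted p of 0.0283 under the block. The DNMT3a library was below the control of the same number in all 3 numbers for 10 members (Cdh5, Esam, Robo4, Sox17, Fli1, Ecscr, Ptprb, Nos3, Notch4 and Dll4), against 25.1% of all genes. It was above in all 3 for 6 (Npr3, Ramp2, Tal1, Vwf, Cd34 and S1pr1), against 28.4%.

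The last comparison sets the knockdowns against each other. Of 35 tested members, Cd34 alone was higher after DNMT3a siRNA, against 4.47% of all genes, and 2, Sox18 and Notch4, were lower, against 5.08%. That is 3 called, against 9.55%. All 3 DNMT3a libraries lay below all 3 DNMT3b libraries for 18 members, against 16.1% of all genes. These were Pecam1, Cdh5, Tie1, Emcn, Esam, Egfl7, Plvap, Robo4, Sox18, Erg, Fli1, Clec14a, Ecscr, Mmrn2, Rasip1, Nos3, Notch4 and Dll4. The 3 DNMT3a libraries lay above for Cd34 alone, against 16.2%. The median log2 fold change was -0.81 over the members and 0.01 over all genes, with 5 above 0 and 30 below.

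Cd34 was the member that was higher after DNMT3a siRNA (ENSMUSG00000016494, chr1:194938819-194961279, plus strand). It was at 151, 104 and 165 CPM in controls, 329, 127 and 307 CPM in DNMT3a 1 to 3, and 61.0, 69.4 and 70.4 CPM in DNMT3b 1 to 3. The DNMT3b libraries were the lowest of all 9, DNMT3a 1 and 3 were the highest, and DNMT3a 2 lay within the controls. Cd34 was 3.80-fold higher after DNMT3a siRNA than after DNMT3b siRNA (log2 fold change 1.93, SE 0.35, adjusted p = 0.0148). This call was lost without DNMT3a 1, DNMT3a 3, DNMT3b 2 or DNMT3b 3 (adjusted p = 0.0541 to 0.0657). Against controls the difference was 0.86 after DNMT3a siRNA (SE 0.34, adjusted p = 0.161) and -1.07 after DNMT3b siRNA (SE 0.34, adjusted p = 0.118). Without DNMT3a 2 both passed, at 1.17 (adjusted p = 0.00304) and -1.08 (adjusted p = 0.00427).

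Sox18 was 3.55-fold lower after DNMT3a siRNA than after DNMT3b siRNA (log2 fold change -1.83, SE 0.48, adjusted p = 0.0377), and Notch4 was 2.28-fold lower (-1.19, SE 0.32, adjusted p = 0.0443). The Sox18 call was lost without DNMT3a 1, DNMT3a 3, DNMT3b 2 or DNMT3b 3 (adjusted p = 0.091 to 0.151). The Notch4 call was lost without any of those 4, DNMT3b 1 or control 3, and with library size alone for scaling (adjusted p = 0.0541 to 0.156). Dll4, the arterial Notch ligand, was at 0.139, 0.683 and 0.666 CPM in controls, 0.130, 0.424 and 0.196 CPM with DNMT3a siRNA, and 0.615, 1.29 and 1.09 CPM after DNMT3b siRNA. Robo4, an endothelial receptor of the roundabout family, was at 0.223, 1.20 and 0.888 CPM in controls, 0.130, 0.515 and 0.523 CPM with DNMT3a siRNA, and 0.861, 1.23 and 1.72 CPM after DNMT3b siRNA. Both separated the knockdown groups and overlapped the controls, at levels where few reads stand behind each value. The Pecam1 difference was -1.34 and did not pass (SE 0.48, adjusted p = 0.127).

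**Figure D4:**
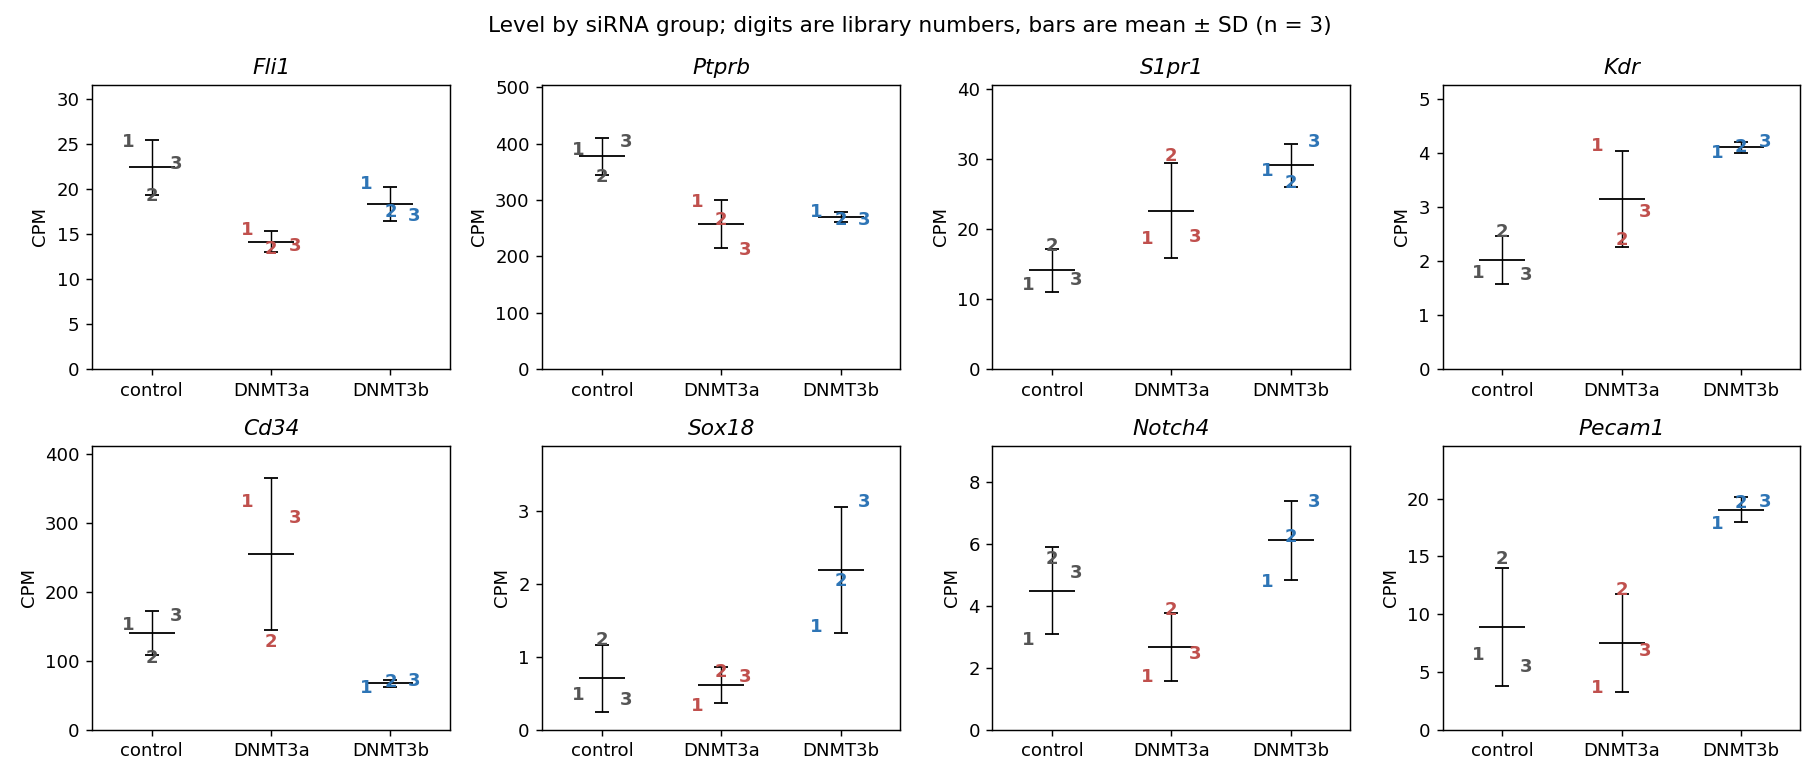
CPM (y axis, from 0) by siRNA group (x axis) for the 7 members called in a comparison and for Pecam1, which was not called. Digits give the library numbers, and bars give the mean and SD of 3 libraries. The 3 DNMT3a libraries are lowest of all for Fli1, the 3 DNMT3b libraries are lowest for Cd34 and highest for Sox18, and all 6 knockdown libraries are below the controls for Ptprb.

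Genes that act with the members were read from the same fit. Beside the counts for each list below, 4.87% of all tested genes rose and 5.22% fell after DNMT3a siRNA. With the block 14.3% were called in either direction, and at an unadjusted p under 0.05, 12.7% were higher and 12.2% lower. After DNMT3b siRNA 3.52% rose and 2.12% fell. Of 8 VEGF ligands and co-receptors, 1 rose after DNMT3a siRNA, and 1 rose and 2 fell after DNMT3b siRNA. With the block, Vegfd also rose (adjusted p = 0.0281) and Flt4 fell (adjusted p = 0.0221) after DNMT3a siRNA. Nrp1, the VEGF co-receptor neuropilin 1, was at 143, 115 and 96.5 CPM in controls, 276, 256 and 216 CPM with DNMT3a siRNA, and 184, 177 and 185 CPM after DNMT3b siRNA, and rose by 1.08 (SE 0.14, adjusted p = 0.00091) and 0.62 (adjusted p = 0.0216). Vegfd, a ligand of FLT4, fell by 1.07 after DNMT3b siRNA (SE 0.16, adjusted p = 0.00545). Flt4, the lymphatic VEGF receptor, fell by 0.61 there (adjusted p = 0.0312). Of 5 genes around angiopoietin signalling (Angpt1, Angpt2 and Angpt4, the angiopoietin-like Angptl4 and the matrix protein Svep1), 0 were called in any comparison by edgeR, DESeq2 or limma-voom, and 1 was lower at an unadjusted p under 0.05, after DNMT3a siRNA; this was Svep1, which the block called (adjusted p = 0.039). Of 14 Notch partners, edgeR called 0 after DNMT3a siRNA (1 higher and 2 lower at an unadjusted p under 0.05; DESeq2 called 1 lower), and Notch1 passed with the block (-0.37, adjusted p = 0.0403 with the block). Jag2, a Notch ligand, rose by 0.64 after DNMT3b siRNA (adjusted p = 0.0321).

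Of 23 tested ligands and partners of other members, 3 rose and 4 fell after DNMT3a siRNA (3 and 9 with the block), and 4 rose and 1 fell after DNMT3b siRNA. Of all tested genes, 10.1% were called in either direction after DNMT3a siRNA (14.3% with the block) and 5.64% after DNMT3b siRNA. Nppa and Nppb, natriuretic peptides that NPR3 clears and cardiomyocytes make, rose by 2.08 and 2.92 after DNMT3a siRNA and by 2.24 and 1.84 after DNMT3b siRNA. Cardiomyocyte markers rose in the same libraries, and their part in these changes was not tested. Npr1, the signalling receptor for these peptides, rose by 1.52 after DNMT3b siRNA (SE 0.25, adjusted p = 0.00548), with 5.56 to 7.89 CPM against 1.81 to 3.41 CPM in controls. Slit2, a roundabout ligand, fell by 1.27 after DNMT3a siRNA (SE 0.09, adjusted p = 3.82e-05) and by 0.43 after DNMT3b siRNA (adjusted p = 0.0193). Tgfbr2, the TGF-beta receptor that works with endoglin, fell by 1.27 after DNMT3a siRNA (SE 0.11, adjusted p = 1.02e-04). Of 15 tested partner transcription factors, edgeR called 0 after DNMT3a siRNA (1 higher and 1 lower at an unadjusted p under 0.05; DESeq2 and limma-voom called 0). After DNMT3b siRNA 2 fell: Klf2, a flow-responsive factor, by 1.27 (SE 0.19, adjusted p = 0.0043), and Klf4 by 0.93 (adjusted p = 0.0278).

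Of 27 tested other endothelial genes, 1 rose (Afap1l1, by 1.14, adjusted p = 0.0083) and 1 fell (Tmem204) after DNMT3a siRNA. With the block 1 rose and 3 fell. Of all genes, 10.1% were called in either direction, and 14.3% with the block. After DNMT3b siRNA 4 rose (Afap1l1, Gja5, Cd36 and Mcam) and 1 fell (Hspa12b), against 5.64%. The medians of these 27 were -0.25 and 0.50 on the log2 scale, beside -0.06 and 0.66 for the tested members. Gja5, the connexin of arterial endothelium and of atrial and trabecular muscle, rose by 1.13 (adjusted p = 0.0273). Of 4 tested lymphatic genes, Prox1, a lymphatic transcription factor that cardiomyocytes also express, rose in both knockdowns, by 1.22 and 1.08, and Flt4 is in this list too.

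Members that were too low to test were Cldn5, the main claudin of endothelial tight junctions, with 0 to 5 reads per library, Aplnr, the apelin receptor, with 0 to 16, and Gpihbp1, which anchors lipoprotein lipase to capillaries, with 0 to 3. Differences in them were not detectable at this depth. Reads matching several genes were left out of the counts. Since the strand setting of the counting is not given in the sources used here, how far overlapping antisense genes affected the counts is not known. Among the members concerned are Cdh5 (Gm29682), Eng (Fpgs), Egfl7 (Agpat2), Plvap (Gtpbp3), Nos3 (Atg9b), Ecscr (1700066B19Rik), Fli1 (Gm27201), Cd34 (Gm16897) and Notch4 (Gm20462). Ramp2 (Vps25), Rasip1 (Izumo1) and Egfl7 (Gm20532) overlap protein-coding genes on their own strand, at any strand setting.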

How the data were processed

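RNA was measured by poly(A) RNA sequencing in 9 libraries (3 groups of 3). The authors deposited raw read counts per Ensembl gene with 5 summary lines, whole numbers with no normalization. The submitters' processing notes name FastQC, TopHat2 and HTSeq and the builds mm10 and GRCm38, without roles. For annotation release and strand setting of the counting: not given in the sources used here. Summary lines (reads matching no gene, several genes or several places) held 49.2% to 56.2% of each table and were left out, so genes with near-identical copies are undercounted. Symbols came from GENCODE mouse release 21, which named 42548 of 43629 identifiers. The members and all gene lists were chosen with earlier results of these data known.

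Counts were tested with edgeR 4.0.16 (R 4.3.3): genes with a count of about 10 in 3 libraries and 15 in total were kept, TMM scaled, and a robust quasi-likelihood model of group was fitted over all 9 libraries (6 residual degrees of freedom). P-values are two-sided with Benjamini-Hochberg adjustment over 16561 genes, with a threshold of 0.05. CPM used the TMM-scaled library sizes. An SE is the log2 fold change divided by the square root of F. The fit was tested on simulated data. Libraries of the same number correlated in their deviations from group means at 0.434, 0.513 and 0.459 for DNMT3a with control. Results with the number as a block are therefore given for this comparison beside those of the main fit, which has group alone. No label states what the number marks. Replicates of each group differed beyond counting noise (chi-square per degree of freedom 6.42 to 59.7). Alternatives were other size factors, library size alone, no filter, 1 CPM in 3 libraries, DESeq2 1.42.0, limma 3.58.1 with voom, the replicate block, 2 groups only and leaving out libraries. Removing control 2 and DNMT3a 2 together was chosen after seeing the data. Values are given per library for members called in any comparison with or without the block, for Pecam1, Cdh5, Kdr, Flt1, Tek, Tie1, Emcn, Nfatc1 and Npr3, and for the 5 with the highest control level per kilobase. Related lists name up to 4 called genes per list and comparison.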

Additional observations from a re-analysis of the deposited data

How the results depend on the processing

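A set of 40 member fold changes held those past the threshold with or without the block and those of Cd34. It also held Pecam1, Cdh5, Kdr, Tie1, Flt1 and Emcn after DNMT3b siRNA. None of the 40 changed sign under 19 alternatives. Of their 759 values, 599 kept their side of the threshold, 128 passed it where the reported fit did not, and 32 lost it. The set was chosen in part for passing the threshold with the block, which is itself among the 19 alternatives. The steady signs and some of the 128 therefore follow in part from that choice, and all alternatives reuse the same counts. Tek, the defining marker outside this set, changed sign after DNMT3b siRNA in 1 alternative (reported 0.10, lowest -0.18). Of the other 44 fold changes of named members, 18 changed sign in 1 to 4 alternatives, 11 of them in DNMT3a siRNA against control (Emcn, Egfl7, Sox18, Mmrn2, Tek, Npr3, Rasip1, Cdh5, Pecam1, Tie1 and Plvap); all 18 were at most 0.26 from 0 on the log2 scale. The number of members called in DNMT3a siRNA against control was 2 (10.1% of all genes called), and 4 with DESeq2 (15.1%), 5 with the replicate block (14.3%), 5 without all libraries numbered 2 (7.79%), 5 without control 2 and DNMT3a 2 (10.7%), and 1 to 3 when 1 library was left out; over all genes 1671 were called, 946 with 2 groups only and 868 to 1839 when 1 was left out. The median of the members in this comparison ran from -0.45 to 0.26 when 1 library was left out.

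In DNMT3b siRNA against control it was 3 members (5.64% of all genes), and 5 with no filter (4.08%), 7 with DESeq2 (11%), 13 without all libraries numbered 2 (7.65%), and 18 (15 higher, 3 lower) without control 2 and DNMT3a 2 (15%). Leaving out 1 library gave 0 to 9: 9 without control 2 (10.5%), and 0 without control 1, control 3, DNMT3b 2 or DNMT3b 3 (1.71% to 3.16%). Over all genes 934 were called, 1715 with DESeq2, 2518 without control 2 and DNMT3a 2, and 287 to 1781 when 1 was left out. The members' median of 0.66 was 1.12 without control 2 and DNMT3a 2 and ran from 0.42 to 1.12 when 1 library was left out.

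In DNMT3a siRNA against DNMT3b siRNA it was 3 members (9.55% of all genes), and 5 with no filter (5.17%), 11 with DESeq2 (15.2%), 6 with limma-voom (9.46%), 9 with 2 groups only (12%), 15 without all libraries numbered 2 (9.24%), and 20 without control 2 and DNMT3a 2 (16.8%). Leaving out 1 library gave 0 to 14: 14 without DNMT3a 2 (10.5%), and 0 without DNMT3a 1, DNMT3a 3, DNMT3b 2 or DNMT3b 3 (3.11% to 4.54%). Over all genes 1582 were called, 2823 without control 2 and DNMT3a 2, and 524 to 1962 when 1 was left out; the median ran from -1.19 to -0.52. Fewer libraries also leave fewer degrees of freedom. What sets control 2 and DNMT3a 2 apart was not tested.

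The replicate block raised the members called in DNMT3b siRNA against control to 10 (9 higher, 1 lower) and all genes to 1801 (10.9%), and in DNMT3a siRNA against DNMT3b siRNA to 19 and 2513 (15.2%). There same-numbered libraries correlated weakly, at 0.212, 0.101 and 0.0334, and at 0.161, 0.0776 and 0.0414, so the pairing was not used. Whether these samples share more than a number is not in the labels. Some tested members rest on few reads: Dll4 had 4 to 40 per library, Robo4 4 to 49 and Sox18, which was called, 10 to 89.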
